A study of Mus musculus with 8 samples.

Results

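Transcripts of 9 genes that carry or restrain innate NF-κB signaling were measured in conjunctiva, among the 248 genes of an nCounter inflammation panel. The 9 were taken by name and not by their values: the receptors Nod1 and Nod2, the kinase Ripk2, the adaptor Myd88, the NF-κB factors Nfkb1, Rela and Relb, and the inhibitors Tollip and Tnfaip3. All 9 were rows of the table, and all 9 are described here. The tissue came from female C57BL/6J mice of 8 weeks that had spent 5 days under desiccating stress (DS), a dry eye model of drafty dry air with scopolamine to block tear secretion. During DS, 4 mice were gavaged daily with PBS vehicle and 4 with tributyrin, a prodrug of the short-chain fatty acid butyrate. Both groups carried DS, so the comparison bears on tributyrin under stress and not on stress itself.

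NOD1 and NOD2 are cytosolic sensors of bacterial cell wall fragments, and both pass their signal to the kinase RIPK2. MYD88 carries the signal of most Toll-like receptors and of the receptors of the interleukin-1 family. The routes meet at a kinase complex that frees NF-κB dimers to enter the nucleus and switch on inflammatory genes. TOLLIP dampens the upper part of the route, and TNFAIP3, a ubiquitin-editing enzyme that NF-κB itself induces, shuts it down afterwards. In the conjunctiva these sensors face the microbes and the debris of the ocular surface.

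Each value was a log2 normalized count per gene and mouse, scaled by the authors to reference genes. The counts before scaling could be recovered as whole numbers for 100% of the genes, and totaled 742068 to 1494519 per mouse. The scaling factor of a mouse, which is what 1 recovered count was worth after scaling, ran from 0.741 to 1.08 in vehicle mice and from 0.838 to 1.56 in tributyrin mice. Mice are named here by the numbers in their labels, 5 to 8 for vehicle and 9 to 12 for tributyrin. Tributyrin mice 9 and 12 had the lowest totals and the largest factors. None of the 12 listed epithelial and goblet cell markers of conjunctiva was among the 248 genes, so the tissue could not be checked against them. In whole tissue, fewer cells of a type and less RNA per cell cannot be told apart.

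None of the 9 genes differed between tributyrin and vehicle mice beyond the spread between mice. With limma (two-sided, Benjamini-Hochberg over 248 genes), 0 of the 9 passed an adjusted p of 0.05, as did 0% of the panel, and their adjusted p ran from 0.480 for Ripk2 to 0.939 for Rela. Fitted with voom instead, 7 panel genes passed and none was one of the 9. Without adjustment, 0 of the 9 and 12.5% of the panel had a limma p under 0.05. The values of vehicle and tributyrin mice overlapped for all 9, where 7.26% of the panel had groups that did not overlap. Of the 9 differences 6 lay above 0, near the 71.4% of the panel that did. With quantile normalization 6 of the 9 and 56.9% of the panel did so, but Nod1 fell below 0 and Tollip came to exactly 0 while Nfkb1 and Rela turned positive. Taking tributyrin over vehicle, the median of the log2 fold changes was 0.024 over the 9 and 0.055 over the panel. For 5 of the 9, Nod1, Nfkb1, Rela, Relb and Tollip, the 95% interval lay within 0.2 of 0 on the log2 scale, which is a 1.15-fold change. These intervals are for the deposited scaling. With quantile normalization Relb had a log2 fold change of 0.16 (limma unadjusted p = 0.0347, adjusted p = 0.375).

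**Figure D1:**
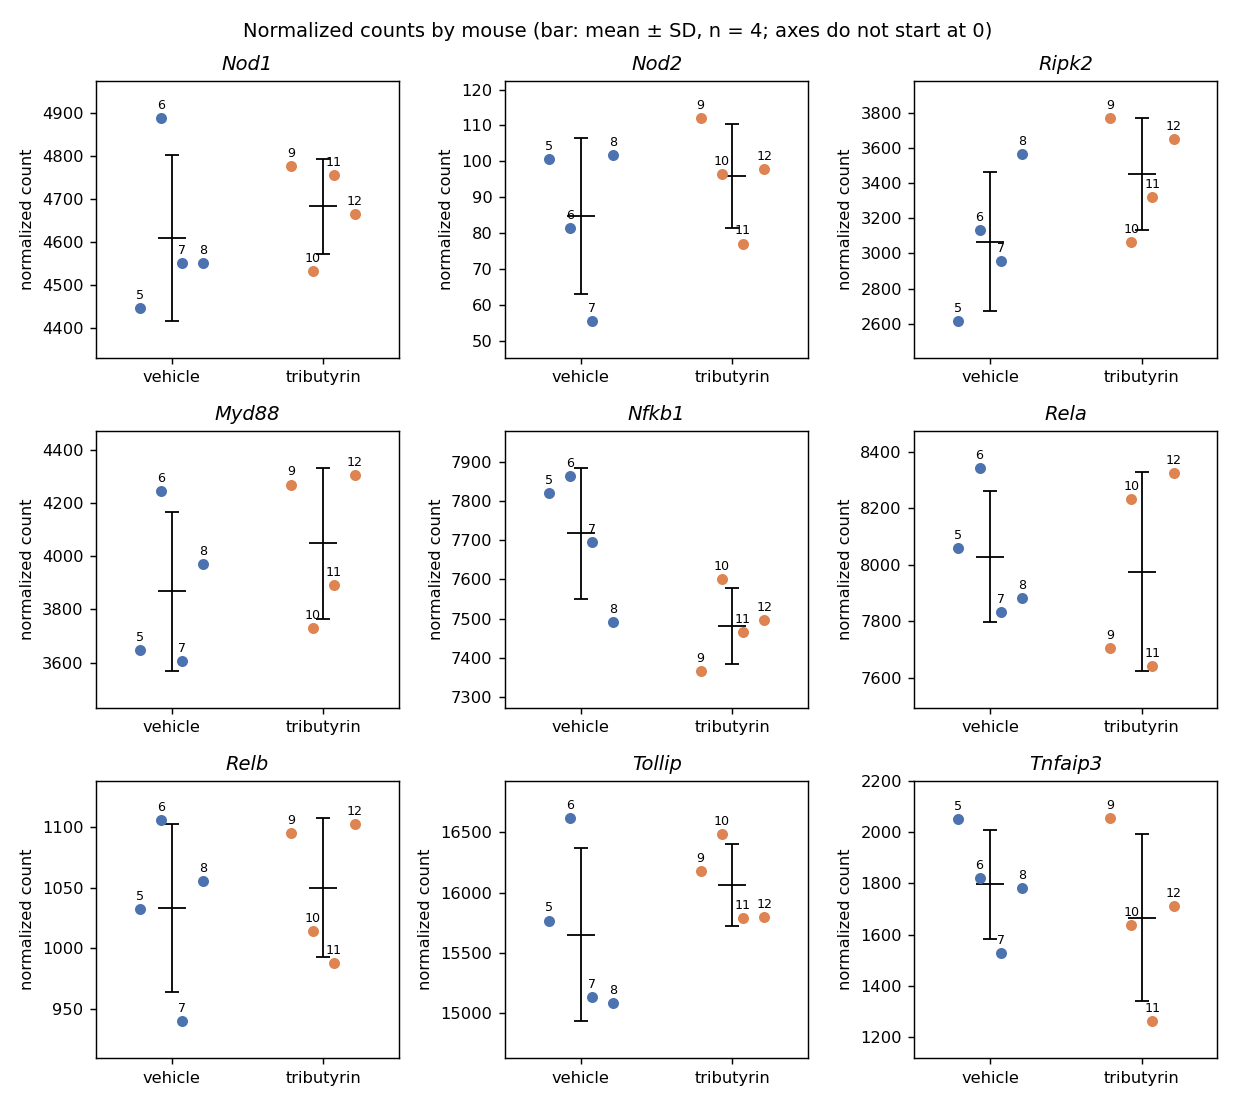
Normalized count (vertical axis, linear, not from 0) of each of the 9 genes in 4 vehicle mice (blue) and 4 tributyrin mice (orange), with mouse numbers at the points and bars for the mean ± SD. The groups overlap in every panel, and Nfkb1 comes closest to separation, with 2 of 16 pairs of mice in which the tributyrin mouse was the higher.

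The receptor genes differed from each other in how firmly they were measured. Nod1 (Entrez gene 107607), whose product senses fragments typical of Gram-negative bacteria, had 4445, 4888, 4550.3 and 4552 normalized counts in vehicle mice 5 to 8. It had 4777, 4533, 4755 and 4664 in tributyrin mice 9 to 12. Vehicle mouse 6 held the highest value and vehicle mouse 5 the lowest, so that all 4 tributyrin mice fell within the vehicle range. The log2 fold change was 0.023 (95% interval -0.10 to 0.14, limma adjusted p = 0.832), and the whole span of the 8 mice was 1.10-fold.

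Nod2 (257632), the sensor of muramyl dipeptide, gave few counts. The vehicle mice had 101, 81.4, 55.5 and 102 normalized counts, and the tributyrin mice 112, 96.4, 77.1 and 97.8. Vehicle mouse 7 was the lowest of the 8 and tributyrin mouse 9, with the largest scaling factor, the highest. These values rested on 72 to 124 recovered counts, and mouse 9 had the fewest. The log2 fold change of 0.21 had an interval from -0.28 to 0.69 (limma adjusted p = 0.679), so these mice set only wide limits to a change in either direction. It was 0.015 without vehicle mouse 7 and 0.31 without vehicle mouse 8. No other of the 9 genes spread as widely, with a 2.02-fold span over the 8 mice.

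Ripk2 (192656), the kinase downstream of both NOD receptors, had the smallest unadjusted limma p of the 9. Its normalized counts were 2615, 3134, 2958 and 3563 in the vehicle mice and 3769, 3064, 3324 and 3653 in the tributyrin mice. The tributyrin value was the higher in 13 of 16 pairs of mice, while vehicle mouse 8 stood above 2 of the tributyrin mice. The means were 3068 ± 395 (SD, n = 4) and 3453 ± 321 (SD, n = 4), a log2 fold change of 0.17 (standard error 0.11, limma unadjusted p = 0.150, adjusted p = 0.480). An exact permutation test of all 70 assignments gave a two-sided p = 0.171, where 4 against 4 mice allow no less than 0.0286. The difference fell to 0.066 without mice 9 and 12 and to 0.078 when the log2 scaling factor entered as a covariate, and it was 0.10 without vehicle mouse 5.

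Myd88 (17874), the adaptor shared by Toll-like and interleukin-1 receptors, had 3648, 4245, 3607 and 3969 normalized counts with vehicle and 4269, 3729, 3891 and 4305 with tributyrin. The low values belonged to vehicle mice 5 and 7 and tributyrin mouse 10, and the high ones to vehicle mouse 6 and tributyrin mice 9 and 12. The log2 fold change was 0.067 (95% interval -0.11 to 0.25, limma adjusted p = 0.698), and it crossed 0 to -0.0047 with the scaling factor as a covariate and to -0.019 without mice 9 and 12.

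**Figure D2:**
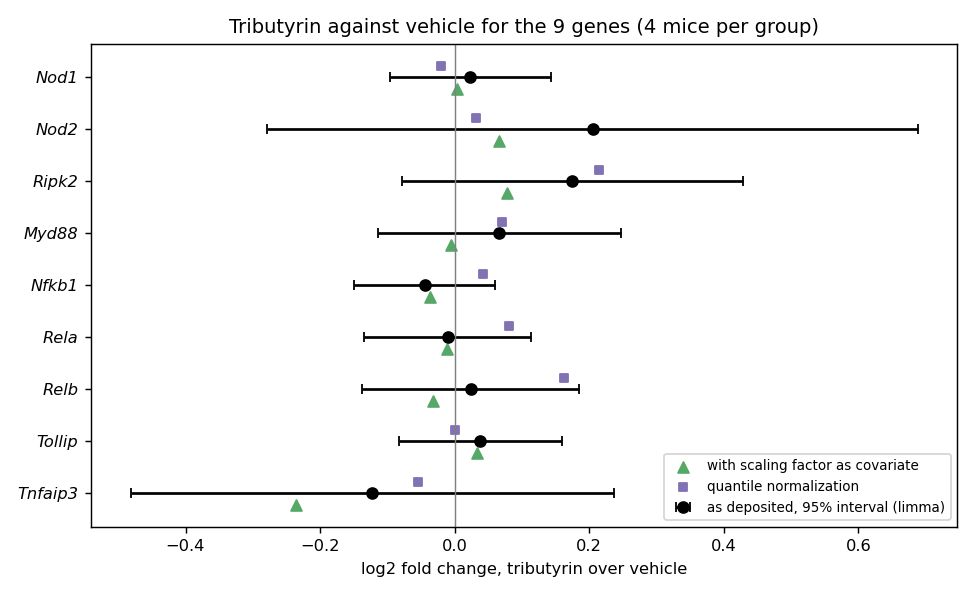
Log2 fold change, tributyrin over vehicle (horizontal axis), of the 9 genes as deposited with 95% limma intervals (black), with the scaling factor as a covariate (green triangles) and after quantile normalization (purple squares), 4 mice per group. Every interval holds 0, from the narrow one of Nfkb1 (-0.15 to 0.059) to the wide one of Nod2 (-0.28 to 0.69).

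Of the NF-κB factors, Nfkb1 (18033), which encodes the precursor of a DNA-binding subunit, was the most even gene between mice. It had 7821, 7866, 7695 and 7490.4 normalized counts with vehicle and 7365, 7601, 7465 and 7495 with tributyrin. The 3 highest values were all of vehicle mice, and vehicle mouse 8 lay among the tributyrin mice. The means were 7718 ± 168 (SD, n = 4) and 7481 ± 96.9 (SD, n = 4), a 1.03-fold difference in favor of vehicle with a log2 fold change of -0.045 (standard error 0.045, limma adjusted p = 0.679). The exact permutation p of 0.0857 (two-sided, unadjusted) was the smallest of the 9. The sign held on leaving out each mouse, from -0.059 to -0.036, but turned to 0.042 with quantile normalization.

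Rela (19697), the main transactivating partner in the dimer, had 8058, 8344, 7833 and 7881 normalized counts with vehicle and 7705, 8234, 7641 and 8324 with tributyrin. Tributyrin mice 10 and 12 were near the top of the vehicle range and mice 9 and 11 below it. The log2 fold change was -0.010 (95% interval -0.13 to 0.11, limma adjusted p = 0.939).

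Relb (19698) encodes the factor of the slower, non-canonical branch of NF-κB. It had 1033, 1105, 939.8 and 1056 normalized counts with vehicle and 1095, 1015, 988 and 1102 with tributyrin. The tributyrin mouse was the higher in 8 of 16 pairs. The log2 fold change of 0.024 (95% interval -0.14 to 0.19, limma adjusted p = 0.886) went with no separation of the groups.

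Tollip (54473), which binds interleukin-1 and Toll-like receptor complexes, varied little between mice, with 15768, 16620, 15131 and 15079 normalized counts with vehicle and 16178, 16488, 15788 and 15793 with tributyrin. Its log2 fold change was 0.038 (95% interval -0.083 to 0.16, limma adjusted p = 0.731). Tnfaip3 (21929) had 2051, 1823, 1529 and 1783 normalized counts with vehicle and 2057, 1636, 1260.4 and 1710.3 with tributyrin. Tributyrin mouse 11 was the lowest of the 8, while tributyrin mouse 9 and vehicle mouse 5 shared the top. The means were 1796 ± 214 (SD, n = 4) and 1666 ± 327 (SD, n = 4), with a log2 fold change of -0.12 (95% interval -0.48 to 0.24, limma adjusted p = 0.716). It was 0.0043 without mouse 11, -0.23 without mouse 9 and -0.32 without mice 9 and 12, so leaving out a single mouse turned its sign.

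The stretch of 250 bases before the transcription start is shown for both inhibitors because they differ there in matches to the κB consensus decamer, the pattern that NF-κB dimers bind. Sequences are those of RefSeq for GRCm38.p6, read 5′ to 3′ on the strand of the gene, with matches in capitals. Tnfaip3 lies on the minus strand (chr10:19015411-19015660) and so does Tollip (chr7:141902462-141902711).
Tnfaip3: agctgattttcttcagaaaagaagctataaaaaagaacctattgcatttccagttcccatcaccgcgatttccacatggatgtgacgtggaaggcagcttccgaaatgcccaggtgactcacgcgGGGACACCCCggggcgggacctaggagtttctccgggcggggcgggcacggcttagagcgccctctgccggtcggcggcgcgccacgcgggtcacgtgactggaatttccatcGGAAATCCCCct
Tollip: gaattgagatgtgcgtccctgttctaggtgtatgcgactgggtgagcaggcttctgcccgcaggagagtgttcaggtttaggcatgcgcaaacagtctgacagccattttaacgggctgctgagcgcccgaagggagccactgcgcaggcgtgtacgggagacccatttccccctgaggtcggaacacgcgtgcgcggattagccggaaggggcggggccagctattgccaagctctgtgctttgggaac
The first stretch held 2 matches, GGGACACCCC from 125 to 116 bases before the start and GGAAATCCCC from 12 to 3 bases before it, and the second held none. Both strands were searched. Windows were at hand for 6 of the 9 genes, 8 windows in all, since Nod1 and Tnfaip3 each had a second start site, and only this window of Tnfaip3 held a match. Ripk2, Nfkb1 and Relb had no window in the table. Over all 32851 mouse windows of this length 7.25% held at least 1 match and 1.03% held 2 or more. A match is a stretch of letters and not a shown binding site.

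Activators were then set against inhibitors within each mouse. The mean log2 value of the 7 activators minus that of Tollip and Tnfaip3 was taken as a difference from the mean of the 8 mice, since probes of different genes cannot be compared in level. It was -0.16, -0.050, -0.045 and 0.049 in vehicle mice 5 to 8 and -0.049, -0.0054, 0.18 and 0.085 in tributyrin mice 9 to 12. The groups overlapped, and the tributyrin mean was 0.10 higher on the log2 scale, beside an SD of 0.087 with vehicle and 0.10 with tributyrin (n = 4 each). No test was made on this score, as its genes were chosen. Without vehicle mouse 5 the difference was 0.068 and without tributyrin mouse 11 it was 0.063.

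Of its parts, the activator mean was 0.063 higher with tributyrin and the inhibitor mean was 0.042 lower. Relative to Tnfaip3, the 7 activators were 0.19 higher with tributyrin (SD 0.14 and 0.23), and each of the 7 ratios was above 0. Relative to Tollip they were 0.024 higher (SD 0.089 and 0.077), with 3 of the 7 ratios above 0 and 4 below. Tnfaip3 is the denominator of all 7 ratios, so they share its low value in mouse 11 and are not 7 separate observations. In that mouse the activators stood 0.40 above their mean relation to Tnfaip3, against -0.17 in mouse 9 of the same group.

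**Figure D3:**
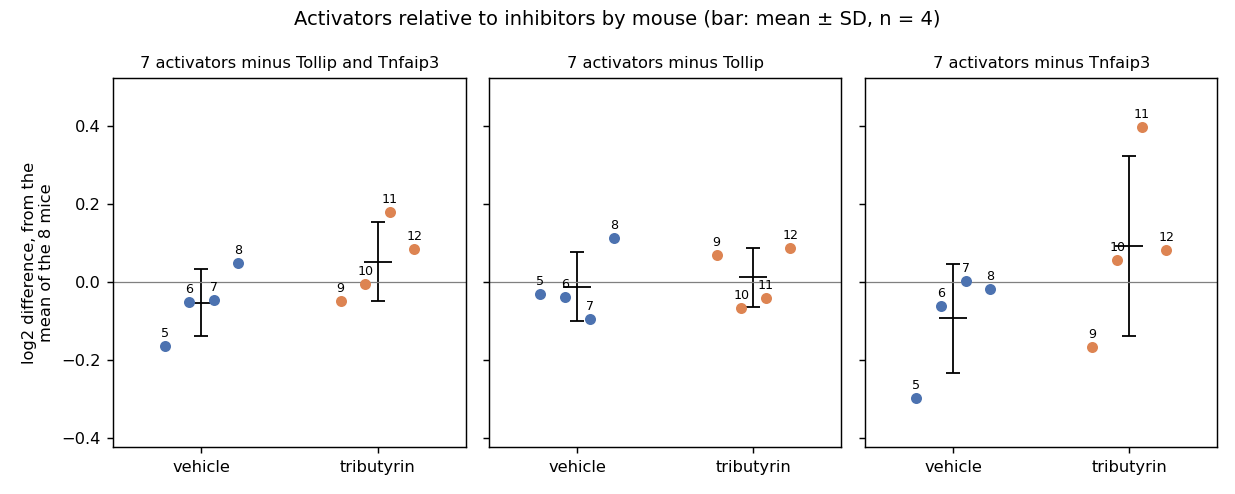
Mean log2 value of the 7 activator genes minus that of both inhibitors, of Tollip alone and of Tnfaip3 alone, as a difference from the mean of the 8 mice (vertical axis), in 4 vehicle mice (blue) and 4 tributyrin mice (orange) with the mean ± SD. The groups overlap in all 3 panels, and tributyrin mouse 11, at 0.40, stands highest in the panel for Tnfaip3.

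The spread between mice of a group was set against the spread that counting error alone gives, and the ratio ran from 1.54 to 6.79 over the 9 genes. For Nfkb1 the SD within groups was 0.026 on the log2 scale, 1.54 times the 0.017 that counting error alone gives, and only 4 of the 248 genes had a smaller SD. Nod1, Tollip and Rela had similarly small SDs of 0.049, 0.051 and 0.054, against a panel median of 0.18, which were 2.26, 4.39 and 3.27 times counting error. Relb stood at 1.97 times and Myd88 at 4.58 times. Tnfaip3, at 0.24, varied 6.79 times as much as counting error, and Ripk2, at 0.16, 6.36 times. Nod2 had the largest SD of the 9, 0.33, which was 2.12 times the 0.16 that 72 to 124 counts give. A large SD thus went with few counts for Nod2, and with ample counts for Tnfaip3 and Ripk2. These figures cover counting error only and leave out errors of hybridization and scaling.

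**Figure D4:**
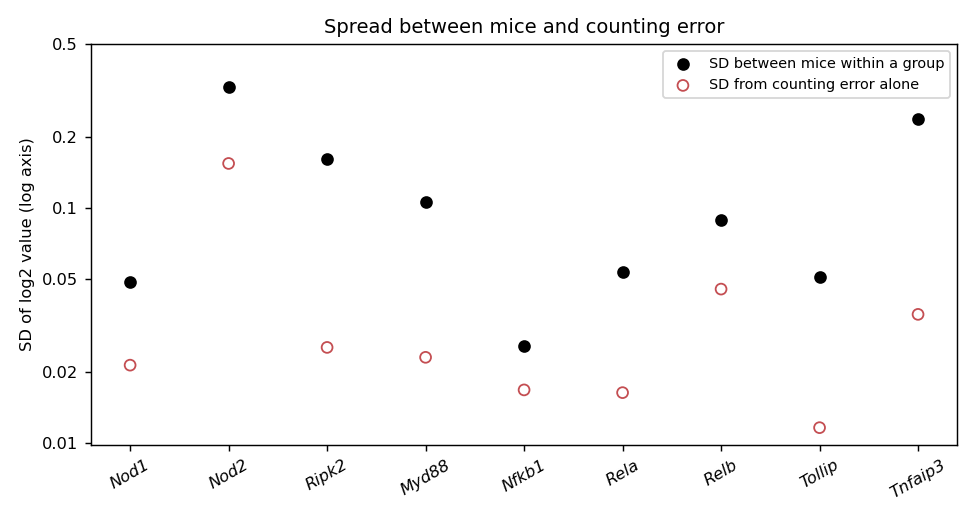
SD of the log2 value between mice within a group, pooled over both groups (black), and the SD that counting error alone gives for the recovered counts (red circles), on a log axis, for each of the 9 genes. Nfkb1 lies closest to counting error (0.026 against 0.017), and Tnfaip3 farthest above it (0.24 against 0.035).

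Some of the 9 genes moved with the scaling factor, whose mean log2 value was -0.13 in vehicle and 0.14 in tributyrin mice. Over the 8 mice the log2 value of Myd88 rose with the log2 factor, with Pearson r = 0.91 (exact permutation p = 0.00094, adjusted p = 0.0779 over the 248 genes) and Spearman rho = 0.98 (exact permutation p = 0.00040, adjusted p = 0.0492). On dropping the 2 mice with factors farthest from the median, r was 0.94, and it stood at 0.93 in the vehicle and 0.92 in the tributyrin mice. For Ripk2, r was 0.83 (exact permutation p = 0.0108, adjusted p = 0.238) with rho = 0.90 (exact permutation p = 0.0046, adjusted p = 0.226) and r = 0.80 once those mice were left out. For Relb, r was 0.82 (exact permutation p = 0.0123, adjusted p = 0.238) with rho = 0.81 (exact permutation p = 0.0218, adjusted p = 0.245) and r = 0.80 without them.

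These 3 genes had r of at least 0.8, which 5.65% of the panel reached, and by Pearson's r 0 of the 9 and 0.806% of the panel passed an adjusted p of 0.05. By Spearman's rho 1 of the 9, Myd88, and again 0.806% of the panel passed. The scaled value contains the factor itself. Nfkb1 went the other way, at r = -0.57 (exact permutation p = 0.143, adjusted p = 0.398; rho = -0.48, exact permutation p = 0.243, adjusted p = 0.574), and at -0.27 without the 2 farthest mice. Rela showed no such slope, at r = -0.029 (exact permutation p = 0.946, adjusted p = 0.975; rho = 0.14, exact permutation p = 0.752, adjusted p = 0.901), and at 0.33 without them. The part of depth or RNA amount in these relations was not tested.

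**Figure D5:**
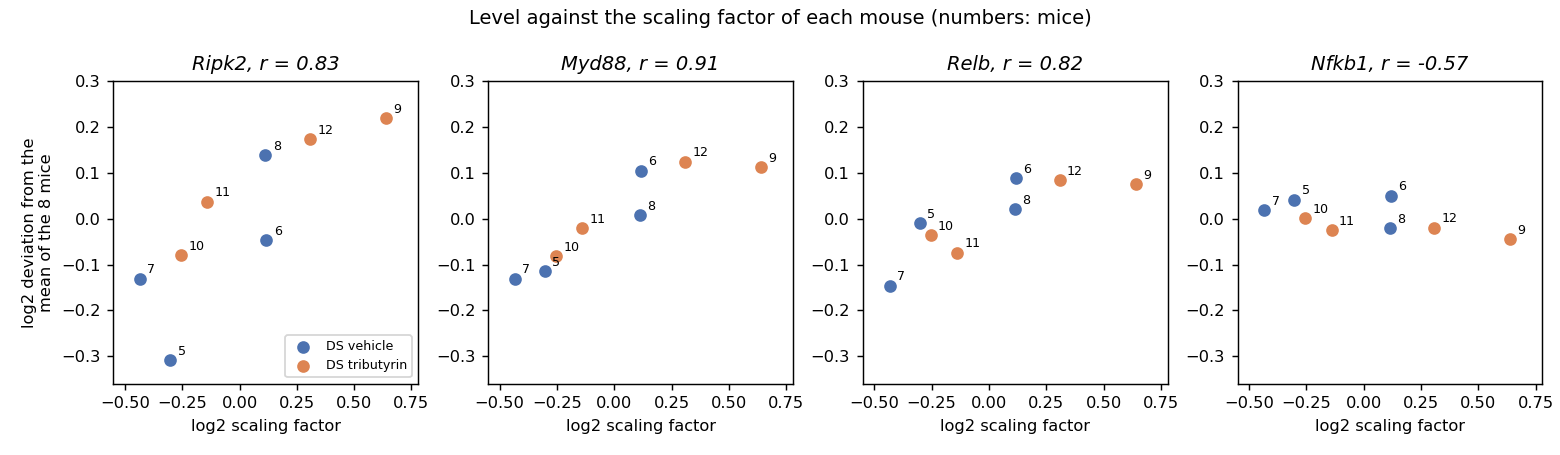
Log2 value of Ripk2, Myd88, Relb and Nfkb1 as a difference from the mean of the 8 mice (vertical axis) against the log2 scaling factor of the mouse (horizontal axis), in vehicle (blue) and tributyrin (orange) mice with their numbers. Myd88 climbs with the factor within both groups (r = 0.91 over all 8), and Nfkb1 slopes gently down (r = -0.57).

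For each member the panel gene with the most similar pattern over the 8 mice was sought among 239 others, which is a description of the best of many and carries no p. Tnfaip3 ran closest to Csf3, the granulocyte growth factor, at r = 0.90, though Csf3 averaged only 41.8 normalized counts. Nod1 ran closest to Tlr5, the flagellin receptor, also at r = 0.90, and Nod2 to the kinase gene Map3k9 at r = 0.88. Ripk2 paired with Gpr44, a prostaglandin receptor, at r = 0.85, though Gpr44 averaged only 32.3 normalized counts. Myd88 paired with Mapk3 at 0.91, Relb with Gnaq at 0.90 and Rela with Pla2g4a at 0.91. Nfkb1 paired with Daxx at 0.89 and Tollip with Il6ra at 0.86. All the points share the scaling factor of the mouse.

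The rest of the route was described from gene lists. Of 21 listed upstream receptors 15 were measured, and 0 passed an adjusted p of 0.05, with a median log2 fold change of 0.034. Tlr9, the endosomal sensor of bacterial DNA, had the smallest p among them, with 50.7 ± 3.27 normalized counts in vehicle and 61.4 ± 7.03 in tributyrin mice (mean ± SD, n = 4; limma unadjusted p = 0.0195, adjusted p = 0.303). Tlr7, which senses single-stranded RNA, had a log2 fold change of 0.43 (limma adjusted p = 0.454) and Tlr1, a partner of TLR2, one of -0.17 (limma adjusted p = 0.469). A mean under 50 normalized counts was found for 6 of the 15 receptors, Tlr7 among them.

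Of 35 listed signaling intermediates 8 were measured: Traf2, Tradd, Ripk1, Birc2, Map3k7, Map3k1, Map3k5 and Map3k9. None passed the test, their log2 fold changes ran from -0.020 for Tradd to 0.15 for Map3k9, and the median was 0.043. Map3k7, the kinase that links RIPK2 and MYD88 signaling to NF-κB, had 0.0090 (95% interval -0.12 to 0.14) and was named after its value was seen. Ripk1, which relays TNF receptor signals, had 0.11 (limma adjusted p = 0.480), and Map3k5, a stress-activated kinase, 0.090 (limma adjusted p = 0.529).

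Of 40 listed NF-κB target genes 37 were measured, and 0 passed an adjusted p of 0.05, with 26 log2 fold changes above 0, against 71.4% of the panel, and a median of 0.15 against 0.055. Of these 37, 19 had a mean under 50 normalized counts. Most of those 19 lay above 0, so the higher median rests in part on genes with few counts. It was not taken for the other targets alone. At an unadjusted limma p under 0.05, 2 were higher and 2 lower, against 12.5% of the panel, and 2 had groups that did not overlap, against 7.26%. Ccr7, a homing receptor of dendritic and T cells, had a vehicle mean of 10.9 ± 0.969 and a tributyrin mean of 17.2 ± 3.34 normalized counts without overlap (SD, n = 4; limma adjusted p = 0.0752). Il12a, a subunit of interleukin-12, had means of 29.4 ± 2.91 and 21.8 ± 2.69, also without overlap (SD, n = 4; limma adjusted p = 0.116). Ccr7 and Il12a are both among the 19 with a mean under 50. The lowest recovered count of any panel gene was 5 to 9 per mouse. Mmp3, a matrix metalloproteinase, had means of 1994 ± 521 and 2932 ± 612 with overlapping groups (SD, n = 4; limma adjusted p = 0.366). Ltb, a lymphotoxin subunit, had a log2 fold change of -0.27 (limma adjusted p = 0.366) and Tnf, the classic inflammatory target, one of -0.35 (95% interval -0.73 to 0.025, limma adjusted p = 0.454). Ltb and Tnf were named after their values were seen.

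Summed counts of immune cell markers overlapped between the groups. The 18 listed macrophage and monocyte markers were matched by symbol, which found 13 and missed Chil3, present in the panel as Chi3l3. Chi3l3 had a log2 fold change of 0.51 (limma unadjusted p = 0.0694, adjusted p = 0.454) at a mean of 46.0 normalized counts. It is left out of the sum, counts and median given here. The summed normalized count of the 13 was 35204 to 40152 with vehicle and 33561 to 39422 with tributyrin. The abundant Arg1 dominates that sum, which says little of the rarer markers. For 8 of 13 lymphocyte markers it was 268 to 303 and 268 to 338, and for 2 of 8 neutrophil markers 44.4 to 52.1 and 47.8 to 71.7. Single markers did not all overlap: 2 of the 8 lymphocyte genes had groups apart, against 7.26% of the panel. At an unadjusted limma p under 0.05, 2 of the 13 macrophage genes were higher and 0 lower, and 2 of the 8 lymphocyte genes were higher and 1 lower, against 12.5% of the panel in either direction. The macrophage list had 9 log2 fold changes above 0 and 4 below, with a median of 0.034, and the lymphocyte list 7 above and 1 below, with a median of 0.26 and 7 of 8 genes at a mean under 50. Over the panel the median was 0.055. The part of such cells in the values of the 9 genes was not tested.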

How the data were processed

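The 9 genes, the gene lists and the rule for named genes were chosen with earlier results of these data known. RNA of 8 mice was counted with an nCounter mouse panel of inflammation genes. The authors scaled these counts by a factor set from the geometric mean of reference genes and deposited log2 normalized counts, with 1 column per mouse. The sources used here do not say whether background was subtracted. Differences were fitted with limma 3.58.1 in R 4.3.3 (lmFit, eBayes, two-sided) on the deposited log2 values, with group as the only term, no filter and Benjamini-Hochberg adjustment over 248 genes. Recovered counts were whole within 0.001. Exact permutation tests used all 70 assignments of the mice, or all orders of the 8 values for correlations, adjusted over 248 genes or over 30628 gene pairs. Caging and batches of mice are not stated, so p-values measure the spread between these mice. Named genes were all members, the 3 of each pathway list with the smallest p, and the gene closest to each member in Pearson's r. Genes named outside this rule are the measured intermediates beyond those 3, given for completeness, and Ltb and Tnf. Arg1, which dominates a marker sum, and Chi3l3, a listed marker that the match by symbol missed, were also named outside it. Alternatives were a pseudocount of 10, filters at means of 20 and 100, quantile normalization, centring on each median, a mean-variance trend, voom, an exact rank test, leaving out each mouse or the 2 shallowest, and the scaling factor as a covariate. Scripts were tested on simulated data. Correlations were computed with SciPy 1.17.1 and NumPy 2.4.6 in Python 3.11.15, and plots with matplotlib 3.10.9. Promoter sequences are those of RefSeq for GRCm38.p6.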

Additional observations from a re-analysis of the deposited data

How the results depend on the processing

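The count of 0 members past an adjusted p of 0.05 was 0 under every alternative run. The count over the panel, 0 as reported, was 6 with the pseudocount, the filter at 20 or median centring. It was 7 with the filter at 100, the trend or voom, 0 in the others, and 0 to 6 without each mouse. The exact rank test could hardly give another count, since 4 against 4 mice allow no p under 0.0286. Its smallest adjusted p over the panel was 0.394. The count of 0 members at an unadjusted p under 0.05 became 1 with quantile normalization (Relb, log2 fold change 0.16, limma adjusted p = 0.375) and 0 to 1 without each mouse, the 1 being Ripk2 without vehicle mouse 8 (0.25, limma adjusted p = 0.462). The activator minus inhibitor difference stayed above 0, from 0.063 to 0.14 without each mouse and from 0.081 to 0.14 otherwise. Of 161 values of single members 12 changed sign, none past the threshold: with quantile normalization Nod1 (-0.020), Nfkb1 (0.042) and Rela (0.081); without the 2 shallowest mice Myd88 (-0.019) and Relb (-0.043); with the covariate Myd88 (-0.0047) and Relb (-0.032). Without each mouse Rela ran from -0.031 to 0.010 (above 0 without vehicle mouse 6 or tributyrin mouse 9 or 11), Relb from -0.021 to 0.057 (below 0 without vehicle mouse 7) and Tnfaip3 from -0.23 to 0.0043. The cause was not tested. The shift of a gene's log2 fold change from its reported value had a median over all genes of -0.020 with median centring. With quantile normalization that median shift was -0.057. Quantile normalization gave Tollip a difference of 0. The filter at 100 leaves out Nod2 from the score, which was not computed for the rank test, the trend or voom. The panel count of 31 at an unadjusted p was 19 with the filter at 100, 18 with the rank test and 16 without the 2 shallowest mice. No paired analysis was made because no pairing of vehicle with tributyrin mice is stated. Nod2 rested on 72 to 124 recovered counts.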

Other observations

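The 36 pairs among the 9 genes were compared over the 8 mice on the log2 values, of which 25 had r above 0 (median 0.31, against 0.12 for all 30628 pairs of panel genes). None passed an adjusted p of 0.05 over all pairs of the panel, where 0 passed as well, and at an unadjusted p the following were among the smallest. Myd88 and Relb moved together (r = 0.87, exact permutation p = 0.0065, adjusted p = 0.565; rho = 0.83, exact permutation p = 0.0154, adjusted p = 0.621), with r = 0.79 on dropping the 2 mice with Myd88 values farthest from the median and 0.88 on deviations from the group means. Ripk2 and Nfkb1 moved apart (r = -0.82, exact permutation p = 0.0127, adjusted p = 0.583; rho = -0.76, exact permutation p = 0.0368, adjusted p = 0.653), with r = -0.67 without the 2 farthest mice and -0.75 on deviations from the group means. Myd88, Relb and Ripk2 also rose with the scaling factor, whose part in these pairs was not tested.

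Nod2 and Tnfaip3 were ordered alike in the tributyrin mice, from mouse 11 at the bottom to mouse 9 at the top, with r = 0.63 over all 8 mice (exact permutation p = 0.101, adjusted p = 0.725; rho = 0.79, exact permutation p = 0.0279, adjusted p = 0.653), and r = 0.41 without the 2 farthest mice. No mouse stood far from the other 3 of its group by Dixon's criterion for any of the 9 genes or the activator score, in 20 groups tested, where chance gives about 1.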
